A study of Arabidopsis thaliana with 8 samples.

Results

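The comparison described here sets protoplasts of hira mutant Arabidopsis thaliana against roots of the same mutant. A protoplast is a plant cell freed from its wall by enzymes. The 4 arrays titled hira-protoplast and hira-root were taken by their titles, 2 of each, out of 8 arrays in the series. The other 4 are WT protoplasts and WT roots, also 2 arrays each, and serve here for the estimate of spread and for the test of whether the mutant responded differently from WT. Seedlings grew on vertical MS plates after a cold treatment of the seed, and total RNA was labelled with an Affymetrix 3′-IVT kit. The labels name the genotype only as hira, with no allele or plant age, and they list enzyme digestion as the treatment of root samples too, and contact of the roots with the enzymes can be neither shown nor excluded from them. Nothing in them ties replicates to separate plants or cultures, so p-values here measure only the spread between these samples.

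HIRA is a histone chaperone that places the histone variant H3.3 into chromatin outside DNA replication. Making protoplasts from roots removes the wall and the contacts between cells, wounds the tissue, and is used as a starting point for plant cells to lose their differentiated state and divide again. The study asked how loss of HIRA affects that loss of differentiation. Early responses to wounding in plants include calcium signalling and the hormones jasmonate and auxin, and auxin-driven factors of the lateral root programme also act in callus formation. No probe set in the annotation used here was named HIRA, so the genotype label could not be checked at the transcript.

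Every value below is a log2 expression value from which the median of that probe set over the 8 arrays has been subtracted. A value therefore shows whether an array lay above or below the middle of the 8, and does not show how abundant the transcript was. A response is the mean of the hira protoplast arrays minus the mean of the hira root arrays, in log2 units, so 1 unit is a 2-fold change. A gene was called when limma's moderated test gave an adjusted p (Benjamini-Hochberg over 22746 probe sets) under 0.05, with the spread taken from all 8 arrays. In bulk samples like these, fewer cells of a type and less RNA per cell cannot be told apart.

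The mutant's transcriptome changed widely on protoplast formation, in both directions and by similar amounts. Of the 22746 probe sets, 5505 were called (24.2%), 2726 higher (12%) and 2779 lower (12.2%). Responses ran from -8.83 to 9.39, with a median of -0.02 over all probe sets and a median size of 1.64 among the called ones. Beyond 4 log2 units, 288 called probe sets were higher and 238 lower, and beyond 6 log2 units 86 were higher and 27 lower. Arrays of the groups did not overlap for 18482 probe sets (81.3%), so the absence of overlap alone says little here. Counting 1 probe set per gene, 2983 of 13350 genes were called (22.3%), 1418 higher (10.6%) and 1565 lower (11.7%). Counts of gene groups below are to be read beside these shares.

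Most of the large responders have no symbol. Of the 260 genes called with a response of at least 4 log2 units, 208 had only their locus code as a symbol and 52 had another symbol. Some locus-code genes have a name listed as a synonym, among them AT5G52050 and AT1G76640. Locus-code genes made up 11798 of the 13350 genes, and 21.7% of them were called (1192 higher, 1366 lower), against 27.4% of the 1552 genes with a symbol (226 higher, 199 lower).

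The number of calls depended most on the hira protoplast arrays. The SD of the difference between replicate arrays over all probe sets was 0.309 in hira protoplasts and 0.615 in hira roots, against 0.612 in WT protoplasts and 0.736 in WT roots. Without hira protoplast replicate 2 the count of called probe sets was 1872, and without hira protoplast replicate 1 it was 2150. The number of arrays limits the precision of every value here. Of 183 called genes that were named by the rule in the methods, 77 stayed called under all 15 alternative settings and all 183 kept their direction. Where a call was lost, "adjusted p up to" gives the highest adjusted p over those alternatives. The actin control's 5′ minus 3′ gap, which reflects how intact or how fully copied the RNA was, was 0.22 and 0.3 in hira protoplasts and -0.35 and -0.16 in hira roots, while the GAPDH control lay between -0.1 and 0.12 on the 4 hira arrays. These gaps come from centred values, so they compare arrays, and a gap near 0 does not show intact RNA. The part of these gaps in the responses was not tested.

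Among the largest rises were genes of jasmonate and auxin responses, stress proteins and many locus-code genes. The largest rise among genes with a single-gene probe set that was called belonged to GH3.3, which encodes an enzyme joining auxin to amino acids and so lowers free auxin. Its values were 0.86 and 0.57 in hira protoplasts, against -7.03 and -9.18 in hira roots. Both root arrays lay far below the other 6 arrays, and they differed from each other by more than the protoplast arrays did. GH3.3 rose by 8.82 (SE 1.24, adjusted p = 0.0109, limma), and its call was lost without hira protoplast replicate 1 (response 8.67, adjusted p = 0.0663) or 2 (response 8.97, adjusted p = 0.0665). JRG21, named for its regulation by jasmonate, had 4.91 and 4.95 in hira protoplasts, against -3.29 and -3.27 in hira roots. Replicates were nearly equal in both groups, and the rise was 8.22 (SE 0.19, adjusted p = 0.000238). IAA30, an Aux/IAA protein of the family that represses auxin response, had 2.3 and 1.81 in hira protoplasts, against -5.95 and -5.51 in hira roots, and rose by 7.78 (SE 0.66, adjusted p = 0.00343). AER, an alkenal reductase that detoxifies reactive carbonyls from oxidised lipids, had 1.43 and 2.08 in hira protoplasts, against -6.0 and -5.81 in hira roots, and rose by 7.66 (SE 0.54, adjusted p = 0.00225). The calls of JRG21, IAA30 and AER held under all 15 alternatives.

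**Figure D1:**
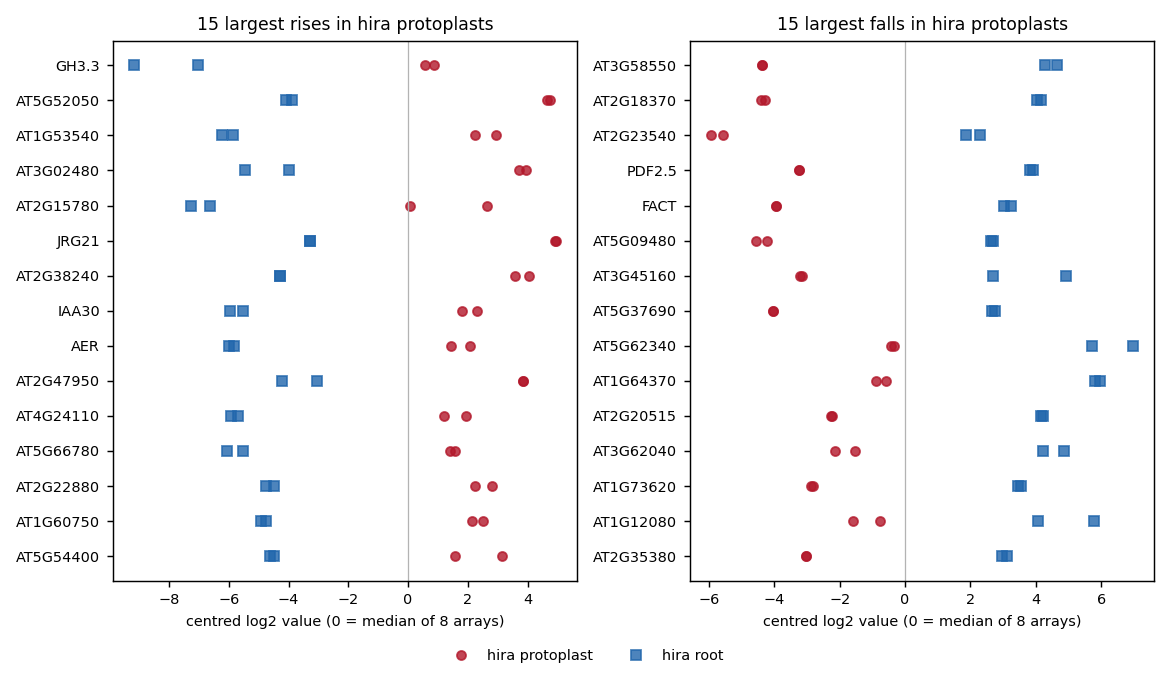
The centred log2 value (0 is the median of 8 arrays) is plotted for each hira array for the 15 genes with the largest called rises and the 15 with the largest called falls. Protoplast and root arrays separate for each gene, for example 4.91 and 4.95 in hira protoplasts against -3.29 and -3.27 in hira roots for JRG21.

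The other 11 of the 15 largest rises were locus-code genes, with responses between 6.92 and 8.7. AT5G52050, listed in RefSeq with the synonym Detoxification Efflux Carrier 50, had 4.64 and 4.76 in hira protoplasts, against -4.1 and -3.9 in hira roots, and rose by 8.7 (SE 0.68, adjusted p = 0.00288). AT1G53540 had 2.93 and 2.25 in hira protoplasts, against -6.21 and -5.87 in hira roots, and rose by 8.63 (SE 0.86, adjusted p = 0.00487). Both loci were high in each protoplast array and low in each root array, with gaps between replicates far smaller than the response. AT3G02480 had 3.96 and 3.71 in hira protoplasts, against -3.98 and -5.44 in hira roots, and rose by 8.55 (SE 0.55, adjusted p = 0.00186). AT2G38240 had 3.56 and 4.05 in hira protoplasts, against -4.29 on both hira root arrays, and rose by 8.09 (SE 0.39, adjusted p = 0.0011). In AT2G15780 the protoplast arrays differed from each other, at 0.07 and 2.63, against -6.64 and -7.26 in hira roots, and the rise was 8.3 (SE 1.05, adjusted p = 0.00846). For these 5 loci every alternative kept the call. AT2G47950 (7.48), AT4G24110 (7.4), AT2G22880 (7.17), AT1G60750 (7.15) and AT5G54400 (6.92) also rose under every alternative. AT5G66780, with 1.39 and 1.56 in hira protoplasts against -6.07 and -5.53 in hira roots, rose by 7.28 (SE 1.21, adjusted p = 0.0167), and leaving out either array of either hira group ended its call (adjusted p up to 0.0934).

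The further large rises with a symbol covered sugar conjugation, metabolism, proteolysis and protein protection. STZ, a zinc finger repressor also called ZAT10 that acts early in abiotic stress, had 1.76 and 2.02 in hira protoplasts, against -4.69 and -3.63 in hira roots, and rose by 6.05 (SE 0.51, adjusted p = 0.00343). LEA4-5, a late embryogenesis abundant protein that protects cells during water loss, had 3.08 and 2.47 in hira protoplasts, against -3.15 and -3.41 in hira roots, and rose by 6.05 (SE 0.43, adjusted p = 0.0023). SBT3.3, a secreted subtilisin-like protease known from immune priming, had 3.04 and 3.09 in hira protoplasts, against -2.75 and -2.88 in hira roots, and rose by 5.88 (SE 0.2, adjusted p = 0.000554). These 3 genes were high on both protoplast arrays, low on both root arrays and called under every alternative. FDH, formate dehydrogenase of mitochondria, had 1.11 and 1.5 in hira protoplasts, against -4.91 and -3.5 in hira roots, and rose by 5.51 (SE 0.5, adjusted p = 0.00403). The glycosyltransferase gene UGT76E12 rose by 6.25 (3.22 and 2.87 in hira protoplasts, -3.23 and -3.19 in hira roots), the small heat shock protein gene ATHSP22.0 by 5.6, and ICL, isocitrate lyase of the glyoxylate cycle, by 5.33. Those calls were lost without a hira protoplast array (UGT76E12 adjusted p up to 0.0652, ATHSP22.0 without replicate 1 adjusted p = 0.0569), and for ICL under 6 of the 15 alternatives, among them the 4 hira arrays alone, with adjusted p up to 0.135.

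Of the 15 largest falls all but PDF2.5 and FACT were in locus-code genes. AT3G58550, with no symbol, had -4.37 in both hira protoplast arrays, against 4.66 and 4.27 in hira roots, and fell by 8.83 (SE 0.21, adjusted p = 0.000227). AT2G18370 had -4.42 and -4.28 in hira protoplasts, against 4.02 and 4.17 in hira roots, and fell by 8.45 (SE 0.26, adjusted p = 0.000438). PDF2.5, a small secreted protein of the plant defensin family, had -3.25 in both hira protoplast arrays, against 3.83 and 3.91 in hira roots, and fell by 7.12 (SE 0.05, adjusted p = 1.16e-05). FACT, which here is the fatty alcohol acyltransferase of suberin waxes and not the histone chaperone of that name, had -3.95 in both hira protoplast arrays, against 3.24 and 3.04 in hira roots, and fell by 7.09 (SE 0.22, adjusted p = 0.000457). The protoplast arrays of AT3G58550, PDF2.5 and FACT were equal to 2 decimals. Centred values cannot show whether such values lie at the lowest measurable signal; if they do, the fall is a lower bound and the small SE does not show its precision. Over all genes, 271 of the 2779 probe sets called lower (9.75%) had hira protoplast arrays within 0.01 of each other, against 21.7% of all probe sets.

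Other large falls were in genes of the wall, of cell signalling and of chromosomes. RALFL24, a rapid alkalinization factor-like signalling peptide, had -1.94 and -1.82 in hira protoplasts, against 3.63 and 3.69 in hira roots, and fell by 5.54 (SE 0.16, adjusted p = 0.000379). 3xHMG-box2, a DNA-binding protein found on condensed mitotic chromosomes, had -2.46 in both hira protoplast arrays, against 2.94 and 2.68 in hira roots, and fell by 5.27 (SE 0.21, adjusted p = 0.000737). ATLP-1, a thaumatin-like protein, had -2.81 in both hira protoplast arrays, against 3.51 and 2.79 in hira roots, and fell by 5.96 (SE 0.38, adjusted p = 0.00181). In all 3 the protoplast arrays were alike and well below the root arrays. GH9B13, an endoglucanase of glycoside hydrolase family 9, had -2.7 and -2.91 in hira protoplasts, against 2.25 and 2.6 in hira roots, and fell by 5.23 (SE 0.41, adjusted p = 0.00282). ChiC, a chitinase, had -3.03 and -3.04 in hira protoplasts, against 2.03 and 2.22 in hira roots, and fell by 5.16 (SE 0.34, adjusted p = 0.00196). These falls held under every alternative. The transcription factor gene BZIP61 (-5.59) and the cation/H+ exchanger gene CHX16 (-5.25) fell as well, and both calls were lost without either WT protoplast array or any of the 4 hira arrays (BZIP61 adjusted p up to 0.123, CHX16 up to 0.142).

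Of the remaining locus-code falls, AT3G45160 (-6.97), AT5G37690 (-6.74), AT5G62340 (-6.73), AT1G64370 (-6.62), AT2G20515 (-6.43) and AT1G73620 (-6.37) were called under every alternative. AT1G73620 had even replicates, with -2.88 and -2.83 in hira protoplasts, against 3.45 and 3.56 in hira roots (SE 0.05, adjusted p = 1.6e-05). AT3G45160 had -3.2 and -3.14 in hira protoplasts, while its hira root arrays differed, at 4.91 and 2.7. AT2G23540 (-7.83, adjusted p up to 0.15) lost the call without any 1 hira array or WT root array, and AT1G12080 (-6.1, adjusted p up to 0.18) without any 1 hira array or WT protoplast array. AT2G35380 (-6.06, adjusted p up to 0.0897) lost it without any 1 hira array, AT3G62040 (-6.37, adjusted p up to 0.0707) without either hira protoplast array, and AT5G09480 (-7.04, adjusted p up to 0.0566) without hira protoplast replicate 2.

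Genes of cell division were lower in hira protoplasts. Of 37 loci in a list of cell cycle and DNA replication genes 4 were measured, and 3 of these fell and none rose, with a median response of -2.5 against -0.02 over all genes. AUR1, an Aurora kinase of the mitotic spindle, had -1.28 and -1.43 in hira protoplasts, against 1.94 and 2.0 in hira roots, and fell by 3.33 (SE 0.09, adjusted p = 0.000366). Its close relative AUR2 had -1.21 and -1.32 in hira protoplasts, against 1.77 and 2.0 in hira roots, and fell by 3.15 (SE 0.2, adjusted p = 0.00178). PRL, the MCM7 subunit of the replication helicase, had -0.29 and -0.77 in hira protoplasts, against 1.51 and 1.14 in hira roots, and fell by 1.85 (SE 0.22, adjusted p = 0.00704). All 3 were low on both protoplast arrays and stayed called when any 1 array was left out. AUR3, an Aurora kinase of centromeres, differed by -1.39 (SE 0.53, adjusted p = 0.135), with hira root arrays at 1.52 and 0.35. Among 5 histone genes found by name 2 fell, with a median of -1.29. They were the H2B gene HTB2 (-1.89, adjusted p = 0.0193) and HTR12, the centromeric histone H3 (-1.29, adjusted p = 0.0161). The HTB2 call was lost without any 1 hira array. The HTR12 call was lost without either hira protoplast array and with the 4 hira arrays alone.

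Microtubule genes moved mostly the same way. Among 11 genes matched by name to kinesins and tubulins 7 fell and 1 rose, with a median of -1.79. TUB5, a beta-tubulin, had -0.14 and -1.26 in hira protoplasts, against 2.9 and 3.33 in hira roots, and fell by 3.82 (SE 0.45, adjusted p = 0.00739). KINESIN-12B, a motor of the phragmoplast that guides the new wall between dividing cells, had -1.1 in both hira protoplast arrays, against 1.16 and 0.81 in hira roots, and fell by 2.09 (SE 0.13, adjusted p = 0.00188). TUB7, TUB6, TUA6, PFI and TUB9 fell by 0.83 to 1.9. The exception was TUA1, an alpha-tubulin, at 1.0 and 0.71 in hira protoplasts, against -2.48 and -2.51 in hira roots, a rise of 3.35 (SE 0.65, adjusted p = 0.0253). Tubulin genes are similar in sequence, and probe sets may share signal among them. The number called lower was between 3 and 5 without any 1 of the hira arrays, and the call of TUA1 was lost without either WT protoplast array or any hira array (adjusted p up to 0.123).

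In the IQD family, proteins that bind calmodulin and often sit on microtubules, 6 of 15 genes fell and 3 rose, with a median of -1.11. IQD26 had -1.69 and -1.65 in hira protoplasts, against 1.85 and 1.44 in hira roots, and fell by 3.31 (adjusted p = 0.00566). Of the others iqd33 (-3.09, adjusted p = 0.00274) fell, and IQD19 fell by 3.68 (adjusted p = 0.0111; up to 0.0695, without either hira protoplast array). IQD22 (2.42), iqd15 (2.02) and IQD23 (1.2) rose. Without hira protoplast replicate 1 no rise was called, and without replicate 2 the calls were 3 falls and 1 rise. NET1A, which links actin to membranes, had -1.78 and -1.73 in hira protoplasts, against 2.46 and 1.69 in hira roots, and fell by 3.83 (SE 0.25, adjusted p = 0.00191).

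Among genes that build and loosen the wall, falls outnumbered rises, while many members were not called. In a list of 24 wall synthesis and remodelling loci 6 were measured, 3 fell and none rose, with a median of -1.56. COB, a surface protein that orients cellulose deposition, had -0.41 and -0.5 in hira protoplasts, against 1.37 and 1.68 in hira roots, and fell by 1.98 (SE 0.18, adjusted p = 0.00409). XTH20 (-4.5, adjusted p = 0.0286) and XTH19 (-2.18, adjusted p = 0.0431), enzymes that cut and rejoin xyloglucan, fell too. The call of XTH20 was lost without any 1 protoplast array of hira or WT (adjusted p up to 0.135), and that of XTH19 without any 1 hira array or WT root array (adjusted p up to 0.174). The XTH20 call was also lost with the 4 hira arrays alone. XTH18 (-1.14) and the xylan synthesis genes IRX15 (-0.41) and IRX15-L (-1.14) were not called. Over the whole set of 11 xyloglucan-modifying genes 4 fell and 2 rose, and 2 falls were called without hira protoplast replicate 1. XTH21 had -0.09 and -0.21 in hira protoplasts, against 2.72 and 2.63 in hira roots, and fell by 2.82 (SE 0.06, adjusted p = 0.000164), while EXGT-A3 rose by 1.65 and XTH29 by 1.93. The call of EXGT-A3 was lost without either hira protoplast array (adjusted p up to 0.0786), and that of XTH29 without any 1 root array or either WT protoplast array, with the hira arrays alone, and under quantile normalization or array weights (adjusted p up to 0.153). The XTH29 response was 2.64 and 1.22 without hira protoplast replicates 1 and 2.

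Expansins, which loosen walls during growth, gave 6 falls and no rise among 19 genes, with a median of -0.69. EXPA15 had -1.5 and -2.31 in hira protoplasts, against 4.11 and 2.52 in hira roots, and fell by 5.22 (SE 0.59, adjusted p = 0.00635). EXPB3 had -0.89 and -1.38 in hira protoplasts, against 4.73 and 3.47 in hira roots, and fell by 5.24 (SE 0.62, adjusted p = 0.00731). In both, root arrays were high and unequal and protoplast arrays were low. Leaving out any 1 hira array left between 1 and 3 expansins called lower, and without hira protoplast replicate 2 EXPB3 had an adjusted p of 0.0535.

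Among 22 trichome birefringence-like (TBL) genes, a family that acetylates wall polysaccharides, 8 fell and none rose, with a median of -0.28 (5 fell without hira protoplast replicate 2). TBL36 had -1.53 and -1.69 in hira protoplasts, against 3.28 in both hira root arrays, and fell by 4.89 (SE 0.08, adjusted p = 9.74e-05). TBL30 had -1.64 and -1.82 in hira protoplasts, against 1.99 and 2.09 in hira roots, and fell by 3.77 (SE 0.17, adjusted p = 0.00092). Their replicates were nearly equal, and both calls held under every alternative. In glycoside hydrolase family 9, the plant cellulases, 4 of 15 fell and none rose. GH9B8 had -1.51 and -1.84 in hira protoplasts, against 3.92 and 2.99 in hira roots, and fell by 5.13 (SE 0.47, adjusted p = 0.00418). In a group of laccase-like and other copper proteins of the wall 4 of 6 fell, with a median of -3.39. sks15, related to the root growth protein SKU5, had -0.11 and -0.1 in hira protoplasts, against 6.03 and 5.6 in hira roots, and fell by 5.92 (SE 0.51, adjusted p = 0.00359). SKU5 itself fell by 3.14 (adjusted p = 0.00442), the plantacyanin ARPN by 3.8 (adjusted p = 0.00753) and sks16 by 3.64 (adjusted p = 0.00924), with the sks16 call lost without either hira protoplast array (adjusted p up to 0.0616).

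**Figure D2:**
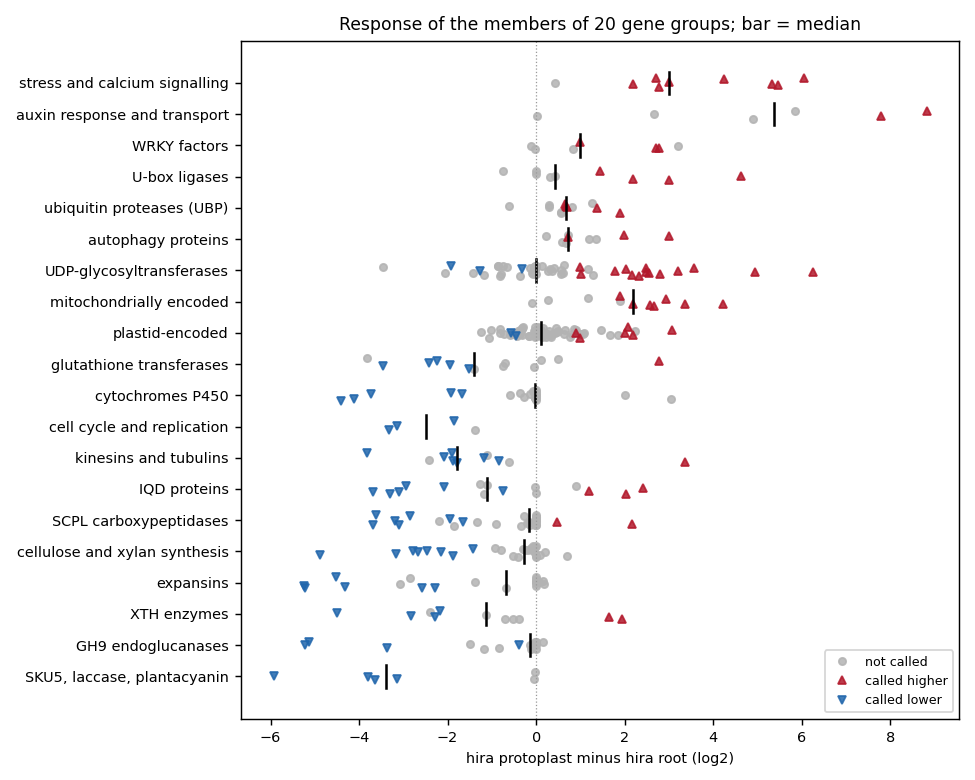
Each mark is the response (hira protoplast minus hira root, log2) of 1 gene in 20 gene groups, a red triangle pointing up where the gene was called higher, a blue triangle pointing down where called lower and a grey circle where not called, and the bar is the group's median. Stress and calcium signalling genes lie to the right with a median of 2.99, and cell cycle genes to the left with a median of -2.5.

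Most measured genes of a list of rapid stress and calcium signalling rose. Of 32 listed loci 9 were measured, 8 rose and none fell, with a median of 2.99. CML37, a calmodulin-like calcium sensor, had 0.97 and 1.4 in hira protoplasts, against -4.13 and -4.16 in hira roots, and rose by 5.33 (SE 0.39, adjusted p = 0.00237). AT1G76640, with the synonym CML39, had 2.86 and 3.11 in hira protoplasts, against -1.57 and -0.96 in hira roots, and rose by 4.25 (SE 0.37, adjusted p = 0.00366). WRKY6, a transcription factor of senescence and defence, had 0.44 and 0.84 in hira protoplasts, against -2.06 and -2.05 in hira roots, and rose by 2.7 (SE 0.17, adjusted p = 0.00176). With STZ, described above, these calls held under every alternative. CML38 (5.46), WRKY53 (2.78) and the U-box ubiquitin ligases PUB22 (2.19) and PUB24 (2.99) rose with less margin. All 4 lost the call without hira root replicate 1 or either hira protoplast array, CML38 and PUB24 also without hira root replicate 2 and PUB24 without either WT protoplast array (adjusted p up to 0.106 for CML38, 0.0967 for WRKY53, 0.117 for PUB22 and 0.185 for PUB24). With the 4 hira arrays alone the calls of WRKY53 and PUB22 were lost as well, and with the replicate block that of PUB24. PUB23 differed by 0.42 (SE 0.72, adjusted p = 0.754). The number of rises was 4 without hira root replicate 1 or either hira protoplast array. Outside that list PUB19, a U-box ligase of drought responses, had 2.49 and 1.87 in hira protoplasts, against -2.44 and -2.46 in hira roots, and rose by 4.63 (SE 0.49, adjusted p = 0.00546). The family of 9 calcium-binding proteins, taken by name, did not move as a group. It gave 4 rises and 1 fall, with a median of -0.02, and CML37, CML38 and AT1G76640 were among these rises.

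Hormone lists gave few calls and several near misses. Of 6 measured genes in the auxin list 2 rose, GH3.3 and IAA30, and none fell, with a median of 5.36. The family of 9 auxin-responsive SAUR, GH3 and Aux/IAA proteins, taken by name, gave 3 rises and no fall, with a median of 0.02. WES1, another GH3 enzyme, had 0.6 and -0.01 in hira protoplasts, against -6.0 and -5.1 in hira roots, a difference of 5.84 (SE 1.48, adjusted p = 0.0501). GH3.1 had 3.66 and 3.47 in hira protoplasts, against -1.32 in both hira root arrays, a difference of 4.89 (SE 1.25, adjusted p = 0.0509). In both the hira groups stood well apart, and the SE also carries the spread between WT arrays. IAA29 differed by 2.66 (adjusted p = 0.0902) and IAA20 by 0.02. LBD16, a transcription factor that starts lateral roots and acts in callus formation, had 2.2 and 2.33 in hira protoplasts, against -2.78 and -1.8 in hira roots, and rose by 4.56 (SE 0.5, adjusted p = 0.00616) under every alternative. It was the 1 call among 3 callus and pluripotency factors with a probe set and a matching name. LBD29 differed by 3.72 (SE 1.99, adjusted p = 0.262) and BBM by -0.49 (SE 0.38, adjusted p = 0.435). AT1G36060, AT5G65130 and AT5G61890 of the same list had a probe set but were left out because their names did not match. JMT, which makes methyl jasmonate, lay near 0 on all hira arrays, with a difference of -0.01 beside the rise of JRG21.

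Of 6 measured genes of abscisic acid, cold and water deficit 2 rose, LEA4-5 and the dehydrin LTI30. LTI30 had 1.21 and 0.9 in hira protoplasts, against -1.52 and -1.35 in hira roots, and rose by 2.49 (SE 0.32, adjusted p = 0.00866), with an adjusted p of 0.0559 without hira protoplast replicate 1. COR47, a further dehydrin, differed by 2.01 (SE 0.52, adjusted p = 0.0524). COR15A, COR15B and AtLEA4-1 each differed by -0.01. In the heat, redox and folding list AER and ATHSP22.0 rose and GSTU25 fell by 1.52 (SE 0.14, adjusted p = 0.00431), while NDB2 differed by 0.3 (adjusted p = 0.644).

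Glycosyltransferases of the UGT type, which attach sugars to hormones and toxins, gave 14 rises and 3 falls among 51 genes, with a median that rounds to 0 because most members differed little. UGT73C7 had 1.21 and 1.32 in hira protoplasts, against -3.14 and -4.18 in hira roots, and rose by 4.93 (SE 0.45, adjusted p = 0.00407). UGT76B1, which glycosylates small defence molecules, had 1.32 and 1.21 in hira protoplasts, against -2.21 and -1.67 in hira roots, and rose by 3.21 (SE 0.32, adjusted p = 0.00485). Rises called in this family numbered 3 and 4 without hira protoplast replicates 1 and 2, and 6 and 7 without hira root replicates 1 and 2. Glutathione transferases, which conjugate toxins to glutathione, gave 5 falls and 1 rise among 13 genes, with a median of -1.4. GSTU22 had -2.24 and -1.51 in hira protoplasts, against 0.25 and 0.84 in hira roots, and fell by 2.42 (SE 0.31, adjusted p = 0.00861), and with the 4 hira arrays alone its adjusted p was 0.0545. GSTU16 rose by 2.77 (adjusted p = 0.0197), a call lost without any 1 of the 4 hira arrays (adjusted p up to 0.104). Without either hira protoplast array the falls called were 2, and without hira root replicate 2 they were 3. Among 24 cytochrome P450 genes 5 fell and none rose (20.8%, near the 22.3% of all genes), with 1 fall called without either hira protoplast array and 3 without any 1 hira root or WT protoplast array. CYP71B37 had -1.75 in both hira protoplast arrays, against 2.64 and 2.66 in hira roots, and fell by 4.4 (SE 0.42, adjusted p = 0.00455).

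In the ubiquitin-specific protease (UBP) family, which removes ubiquitin from proteins, 5 of 12 rose and none fell, with a median of 0.66. UBP18 had -0.04 and 0.15 in hira protoplasts, against -1.92 and -1.76 in hira roots, and rose by 1.89 (SE 0.16, adjusted p = 0.00332). Leaving out either hira protoplast array left 1 UBP gene called, and leaving out hira root replicate 2 left 2 called higher. Of 9 autophagy genes 3 rose, ATG8H (2.99), ATG8B (1.99) and APG8H (0.72), and without either hira protoplast array none was called. In the serine carboxypeptidase-like (SCPL) family 7 of 29 fell and 2 rose, led by scpl28 (-3.69), SCPL45 (-3.62) and scpl40 (-3.2); the call of scpl28 was lost without any 1 hira array (adjusted p up to 0.133), and the family's falls numbered 3 without either hira protoplast array.

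Signalling peptides and sugar carriers held single members that stood out. RALFL34, a peptide of lateral root initiation, had -2.22 in both hira protoplast arrays, against 2.39 and 2.29 in hira roots, and fell by 4.56 (SE 0.07, adjusted p = 9.74e-05). RALFL18 had 1.52 and 1.42 in hira protoplasts, against -0.12 and -0.02 in hira roots, and rose by 1.54 (SE 0.06, adjusted p = 0.000654). Over the 11 RALFL genes 3 fell and 1 rose, with a median of -0.24. Of 14 SWEET sugar exporters 14.3% were called, against 22.3% of all genes, with a family median of -0.01. SWEET14 fell by 3.37 (SE 0.32, adjusted p = 0.00445) and SWEET8 rose by 1.51 (SE 0.18, adjusted p = 0.00734). Among 22 basic leucine zipper transcription factors 3 were called (13.6%, against 22.3% of all genes). bZIP58 had 3.12 and 2.31 in hira protoplasts, against -0.08 and -0.03 in hira roots, and rose by 2.77 (SE 0.38, adjusted p = 0.0101).

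Markers of root cell types were sparse on the annotated array. Both endodermis and suberin markers with a probe set and a matching name fell, FACT, described above, and GSO1. AT1G62500 and AT1G09750 of the same marker list also had a probe set but were left out because their names did not match. GSO1, a receptor kinase needed for a closed Casparian strip, had -1.29 and -1.26 in hira protoplasts, against 1.54 and 2.02 in hira roots. It fell by 3.06 (SE 0.54, adjusted p = 0.0192), a call lost without any 1 of the 4 hira arrays. Of the 2 root hair expansins, EXPA18 had -1.83 and -2.87 in hira protoplasts, against 2.3 and 1.64 in hira roots, and fell by 4.32 (SE 0.9, adjusted p = 0.0299), while EXPA7 differed by -2.85 (SE 0.82, adjusted p = 0.0677). The call of EXPA18 was likewise lost without any 1 of the 4 hira arrays (adjusted p up to 0.146). LHW, a vascular regulator and the single measured stele marker, differed by -0.99 (adjusted p = 0.156), and RCA, the single green-tissue marker, by -0.66 (adjusted p = 0.766) with hira root arrays at -3.01 and 0.62. No root cap marker and none of 32 listed nutrient and water transporters had a named probe set. The part of a changed mix of cell types in the responses of the wall and division genes was not tested.

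Partners of H3.3 deposition showed small responses. ATRX, a remodeller that also helps to place H3.3, had 0.01 and 0.14 in hira protoplasts, against -0.92 and -1.11 in hira roots, and rose by 1.09 (SE 0.14, adjusted p = 0.00936), with an adjusted p of 0.0638 without hira protoplast replicate 2. SGA2, the ASF1A chaperone that hands histones to HIRA and CAF-1, had 0.26 and 0.39 in hira protoplasts, against -0.45 and -0.26 in hira roots, and rose by 0.68 (SE 0.12, adjusted p = 0.0199). Its paralogue ASF1B had -0.13 and -0.15 in hira protoplasts, against 1.75 and 1.1 in hira roots, and fell by 1.56 (SE 0.3, adjusted p = 0.0237). The calls of SGA2 and ASF1B were lost without hira root replicate 1 or either hira protoplast array (adjusted p up to 0.11 and 0.116). The ASF1B call was also lost with the 4 hira arrays alone and with the replicate block. HIS1-3, a linker histone induced by drought, had 0.77 and 0.26 in hira protoplasts, against 1.13 and 2.7 in hira roots, a difference of -1.4 (SE 0.66, adjusted p = 0.211).

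Mitochondrially encoded transcripts were higher in hira protoplasts. Of 11 measured genes 7 rose and none fell, with a median of 2.19. cox2, a subunit of cytochrome c oxidase, had 2.14 and 1.81 in hira protoplasts, against -1.92 and -2.55 in hira roots, and rose by 4.21 (SE 0.5, adjusted p = 0.00729). nad1, a subunit of respiratory complex I, had 1.74 and 1.17 in hira protoplasts, against -1.62 and -2.21 in hira roots, and rose by 3.37 (SE 0.54, adjusted p = 0.0148). The complex I genes nad5 (2.93), nad6 (2.66), nad4L (2.57) and nad9 (2.19) and the maturase gene matR (1.89) rose too. For cox1 the arrays were 1.04 and 1.06 in hira protoplasts, against 0.28 and -1.97 in hira roots, a difference of 1.89 (adjusted p = 0.139), and nad4, nad7 and nad2 were not called. Without hira protoplast replicate 1 none of the 11 was called, with cox2 at an adjusted p of 0.0503, without replicate 2 only 1 was, and without hira root replicates 1 and 2 there were 5 and 3. In all these settings the median response lay between 1.86 and 2.52. The actin control gap, given above, separates the same groups. Plastid genes did not move as a group: 6 of 69 rose and 2 fell, with a median of 0.1. Without hira root replicate 1 the plastid rises numbered 12, without hira root replicate 2 they numbered 2 with 5 falls, and without either hira protoplast array there were 4 rises and no fall. psbA, the core protein of photosystem II, had 1.24 and 1.03 in hira protoplasts, against -1.78 and -2.09 in hira roots, and rose by 3.07 (SE 0.3, adjusted p = 0.00459).

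**Figure D3:**
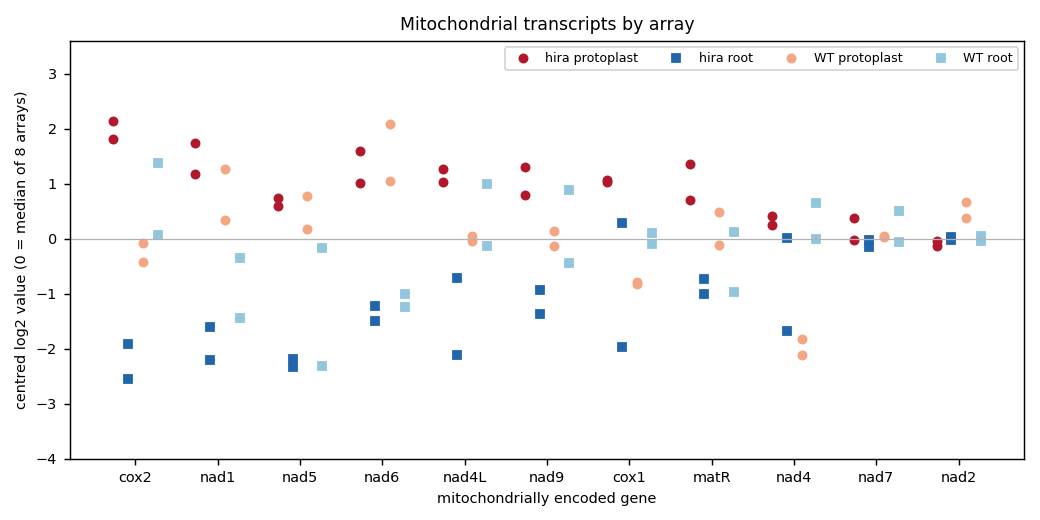
Centred log2 values (0 is the median of 8 arrays) of the 11 mitochondrially encoded genes on each of the 8 arrays, by group. For cox2 the hira protoplast arrays sit at 2.14 and 1.81 and the hira root arrays at -1.92 and -2.55, with the WT arrays between them.

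Adjacent genes changed together in some places. Among 5192 pairs of measured genes that follow each other on a chromosome, 89 had both members higher, 94 both lower, and 121 had 1 higher and 1 lower. Neighbours of a gene called higher were called higher in 15.9% of cases, beside 10.8% of all pair members, and neighbours of a gene called lower were called lower in 15.1%, beside 12.0%. AER (7.66) lay between AT5G16960 (5.49) and AT5G16980 (6.58), and AT4G27652 (5.62) beside AT4G27654 (4.89). AT1G76640 (4.25) neighboured CML38 (5.46). On the falling side AT2G18360 (-5.63) stood beside AT2G18370 (-8.45) and AT1G73620 (-6.37) beside AT1G73630 (-3.89). Adjacent copies of 1 gene can share probe signal, and the files do not show which probe sets do so. Among 989 pseudogenes 10 were called higher and 31 lower (4.15%), though 1 fall was called without either hira protoplast array and 8 and 6 without hira root replicates 1 and 2. The largest rise was in AT3G17110 at 1.99 and 1.89 in hira protoplasts, against -3.12 and -4.48 in hira roots, a rise of 5.74 (SE 0.64, adjusted p = 0.00635).

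The place of the hira arrays among all 8 shows which group stood apart. Of the 2726 probe sets called higher, both hira root arrays lay below the other 6 arrays in 1721 (63.1%, against 12.4% of all probe sets), and both hira protoplast arrays lay above the other 6 in 683 (25.1%, against 5.56%). Of the 2779 called lower, both hira root arrays lay above the other 6 in 1914 (68.9%, against 14%), and both hira protoplast arrays lay below the other 6 in 864 (31.1%, against 29%). These shares describe calls that were chosen for a gap between the same arrays. GH3.3 is a case of low roots: its hira root arrays, at -7.03 and -9.18, lay below WT roots at -3.14 and -0.03, while hira protoplasts (0.86 and 0.57) and WT protoplasts (0.03 and 0.48) were close. sks15 is a case of high roots: at 6.03 and 5.6 its hira root arrays stood apart from hira protoplasts (-0.11 and -0.1), WT protoplasts (1.44 and -0.06) and WT roots (0.06 and -0.09). bZIP58 was instead high on both hira protoplast arrays, at 3.12 and 2.31, against values between -0.56 and 0.26 on the other 6 arrays.

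The response in hira was then set against the response in WT by a test of the difference itself, which asks whether loss of HIRA changed what protoplast formation did. The difference was called for 1108 probe sets (4.87%; 4.52% at 1 probe set per gene), and for 746 of the 5505 called in hira (13.6%). In 548 of these 746 the response was larger in hira and in 198 smaller. The 746 were chosen for a call in hira with no call in WT required, so that split favours hira. In 324 of them the sign was opposite in WT, counted at any size and without a call in WT. Values near 0 in WT are included, such as 0.06 for XTH21. Of the 5505, 2493 were not called in WT, and the difference was called in 388 of these. Genes with a larger response in hira included SBT3.3, which rose by 5.88 in hira and differed by 0.5 in WT (difference 5.38, adjusted p = 0.00579), CML37, with 5.33 in hira and 0.19 in WT (difference 5.14, adjusted p = 0.0246), and TRM19, with 3.36 in hira and -0.48 in WT (difference 3.84, adjusted p = 0.0173). XTH21 fell by 2.82 in hira and differed by 0.06 in WT (difference -2.88, adjusted p = 0.00198). Its hira root arrays, at 2.72 and 2.63, stood apart from the other 6 arrays, which lay between -0.21 and 0.03. TBL30 fell by 3.77 in hira and by 1.07 in WT (difference -2.7, adjusted p = 0.0172). AER rose in both genotypes, by 7.66 in hira and by 3.01 in WT (difference 4.64, adjusted p = 0.0481).

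Opposite responses were led by locus-code genes. AT1G59740, listed with the synonym NPF4.3 of a nitrate and peptide transporter family, had 0.71 and 1.78 in hira protoplasts, against -2.81 and -4.41 in hira roots. In WT it had -0.71 and -1.29 in protoplasts, against 1.89 and 2.1 in roots. It rose by 4.86 in hira and fell by 3.0 in WT (difference 7.85, SE 0.93, adjusted p = 0.0284), so the order of protoplasts and roots was turned round between the genotypes. Its hira call was lost with the 4 hira arrays alone and without hira protoplast replicate 2 (adjusted p up to 0.0598). AT1G52060 had -0.64 and -1.47 in hira protoplasts, against 1.14 and 2.19 in hira roots, and 0.66 and 0.64 in WT protoplasts, against -5.34 and -5.42 in WT roots. It fell by 2.72 in hira and rose by 6.04 in WT (difference -8.76, adjusted p = 0.0113), with WT roots far below the other 6 arrays. The hira call of AT1G52060 was lost in the same settings (adjusted p up to 0.0786). ATRX rose by 1.09 in hira and fell by 1.03 in WT (difference 2.12, adjusted p = 0.0203). cox2 rose by 4.21 in hira and differed by -0.98 in WT (difference 5.18, adjusted p = 0.0343).

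**Figure D4:**
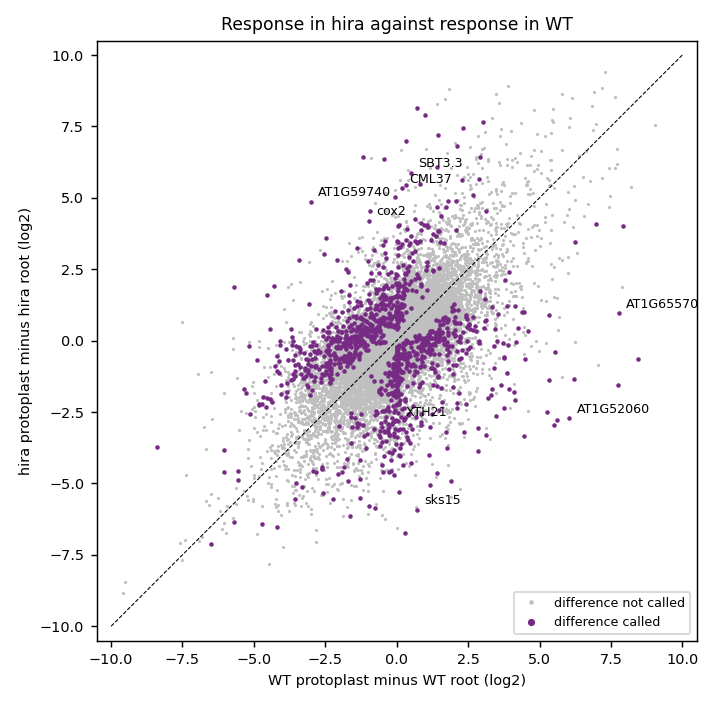
Each point is 1 probe set, with the response in hira (protoplast minus root, log2) on the vertical axis and the response in WT on the horizontal axis, and with called differences coloured. AT1G59740 lies at 4.86 in hira and -3.0 in WT, and AT1G52060 at -2.72 in hira and 6.04 in WT.

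Several genes described above gave no called difference from WT. FACT had a response of -7.09 in hira and -7.6 in WT (difference 0.51, adjusted p = 0.348), AUR1 of -3.33 in hira and -3.47 in WT (difference 0.14, adjusted p = 0.496), and NET1A of -3.83 in hira and -3.81 in WT (difference -0.02, adjusted p = 0.966). LEA4-5 rose by 6.05 in hira and 7.43 in WT (difference -1.37, adjusted p = 0.229). GH3.3, at 8.82 in hira and 1.84 in WT, had a difference of 6.98 that did not pass (SE 1.75, adjusted p = 0.0918). PRL fell by 1.85 in hira and 3.56 in WT (difference 1.71, adjusted p = 0.0544), with hira protoplasts at -0.29 and -0.77 and WT protoplasts at -3.13 on both arrays. The count of called differences was 142 without hira protoplast replicate 2, 168 without hira protoplast replicate 1 and 2185 without WT root replicate 1. For GAPDH that 5′ to 3′ control gap was -0.09 and -0.1 in hira protoplasts and -0.05 and 0.12 in hira roots, against 0.48 and 0.75 in WT protoplasts and -2.24 and -2.19 in WT roots, and its part in the differences was not tested.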

How the data were processed

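RNA from 8 samples was hybridised to 8 Affymetrix arrays, 2 in each of 4 groups. The authors deposited log2 values of 22746 probe sets and 64 control probe sets. The submitters' processing notes name GCRMA, without a version; they do not give the base of the logarithm, and log2 is taken because GCRMA reports log2 values. Each probe set's median over the 8 arrays is 0 in the deposited table, so the values hold differences and no levels, and signal over background is not known.

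Groups came from the sample titles. limma 3.58.1 in R 4.3.3 fitted 4 group means to all 8 arrays (4 residual degrees of freedom), with empirical Bayes moderation, two-sided tests and Benjamini-Hochberg adjustment over 22746 probe sets at 0.05. The contrasts were hira protoplast minus hira root, and that response minus the WT response. The steps were tested on simulated data. Python 3.11.15 with pandas 2.3.3 and matplotlib 3.10.9 made the tables and plots.

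Gene names came from the platform annotation, which pairs 13513 probe sets with 1 gene, 503 with several and 8730 with none, and 13436 matched RefSeq TAIR10.1, used for names and neighbours only. A gene was represented by its first single-gene probe set. Of 152 genes with several, 14 were called on all of them in 1 direction, 48 on some, and 1 in opposite directions. Mitochondrial genes were taken by symbol and plastid genes by RefSeq chromosome, as the annotation gives them by symbol.

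Named were the 15 largest called rises and falls, the 8 next with a symbol, up to 3 called members per direction of each gene group, up to 6 per direction with the largest called difference from WT, and all measured histone chaperones. The members and the 15 lists were chosen with earlier results of these data known. Of 334 listed loci 50 were measured and named, and 8 had a probe set but were left out because their names did not match. Counts of measured loci in the lists do not include these 8, among them the linker histone loci AT1G06760 and AT2G30620. Families were taken by name pattern (at least 5 genes). Groups by symbol prefix (at least 10 genes) were added after seeing the data. Lists were counted, not tested. The alternatives were the 4 hira arrays alone, quantile normalization, a trended robust prior, array weights, a filter on SD, another centring, a replicate block and each array left out. A search of promoters for motifs was not run, and no sequence is printed. Some gene groups are not reported here.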

Additional observations from a re-analysis of the deposited data

Results flagged for a closer look

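Each gene here was called in hira and also had a called difference between the hira and the WT response (main fit, limma, adjusted p under 0.05). Values are the hira response minus the WT response in log2 units. The centred 5′ minus 3′ gaps of the GAPDH control, given above, lay further from 0 on the WT arrays than on the hira arrays. Centring keeps only differences between arrays, so a gap near 0 does not show intact RNA. The part of these gaps in the called differences was not tested.

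Above 0 lay AT1G59740 (7.85), AT1G66090 (6.22), AT1G72920 (5.57), the protease gene SBT3.3 (5.38), the mitochondrial gene cox2 (5.18), the calcium sensor gene CML37 (5.14), the alkenal reductase gene AER (4.64), TRM19 (3.84), the plastid gene psbA (3.49), iqd15 (3.07), ATRX (2.12), SWEET8 (1.5), RALFL18 (1.37), the plastid gene psbM (1.03), RALFL34 (0.99) and TBL36 (0.65). In psbM, RALFL34 and TBL36 both genotypes fell, less in hira.

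Below 0 lay AT1G52060 (-8.76), AT5G62340 (-7.02), AT1G65570 (-6.81), sks15 (-6.62), AT3G49070 (-6.11), AT2G39040 (-5.91), XTH21 (-2.88), EXPA9 (-2.87), scpl40 (-2.8), iqd33 (-2.78), SWEET14 (-2.77), TBL30 (-2.7), the glutathione transferase gene GSTU25 (-2.34), TET7 (-2.32), XTH32 (-2.17), RALFL24 (-1.98), AT2G20515 (-1.72), AtSec20 (-0.78), AT1G73620 (-0.66) and PDF2.5 (-0.61). Both hira root arrays lay above the other 6 arrays for each of these genes except AT1G65570, AT3G49070, AT2G39040 and GSTU25. AT1G65570 rose in both genotypes, by 0.96 in hira and by 7.77 in WT. The gene GSTU25 fell by 1.52 in hira and rose by 0.82 in WT. For PDF2.5 and AT1G73620 the difference is small beside the responses themselves, -7.12 in hira and -6.52 in WT for PDF2.5, and -6.37 in hira and -5.7 in WT for AT1G73620. It passed because replicates were nearly equal, with a response SE of 0.05 for each.

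For each gene the alternatives were counted for the hira call only, and not for the called difference. Over all probe sets the called differences numbered 302 with the replicate block and 610 with a trended robust prior, against 1108 in the main fit. The differences of EXPA9, TBL36 and SWEET8 passed only narrowly (limma, adjusted p = 0.0497 each). Of the flagged genes 13 lost the hira call under at least 1 of the 15 alternatives. It held under 5 for AT1G65570 (adjusted p up to 0.185), 8 for psbM (up to 0.137), 9 for AT2G39040 (up to 0.138), 11 for AtSec20 (up to 0.084), 12 for EXPA9 (up to 0.0797) and 13 for iqd15, AT1G59740 and AT1G52060 (up to 0.0786). For ATRX, cox2, AT1G66090, AT1G72920 and AT3G49070 it held under 14 (up to 0.0639).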

How the results depend on the processing

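Against 5505 called probe sets in hira, leaving out 1 array gave 1872 to 5628, and the other alternatives gave 4527 to 7842, of which array weights, which favour the hira protoplast arrays at 2.77 each, gave the most. The hira protoplast arrays had the largest effect (2150 without replicate 1, 1872 without replicate 2). Against 1108 called differences from WT, the count was 610 with a trended robust prior, 718 with array weights, 302 with the replicate block and 142 to 2185 with 1 array left out. The cause was not tested. Replicate numbers were not used as pairs in the main fit. Deviations of same-numbered arrays correlated only between -0.096 and 0.048 over groups. Such values cannot tell whether same-numbered samples were prepared together. With the replicate block the hira count was 4527, and 30 named calls were lost. All 183 named calls kept their direction, and the median response of all probe sets moved only between -0.02 and -0.001 over the scalings. Named calls lost numbered 94 and 96 with hira protoplast replicate 1 or 2 left out, 51 and 54 with hira root replicate 1 or 2 left out, and 39 with the hira arrays alone. Without signal over background, low-signal genes cannot be told from absent ones.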
